A study of Rattus norvegicus with 2 samples.

Results

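The miR-99/100 and miR-125 families were measured here in the nucleus accumbens (NAc), a brain region of reward, of rats given alcohol or vehicle. The miR-99/100 family was represented by 3 probes, rno-miR-99a, rno-miR-99b and rno-miR-100, and the miR-125 family by 2 probes, rno-miR-125a-5p and rno-miR-125b-5p. The 5 members were taken by probe name from the 349 rat miRNA probes of the array, and names ending in an asterisk were left out. The study asked whether repeated alcohol alters the miRNAs of this region. Adult male Sprague-Dawley rats, 18 in the series and weighing 150 to 180 g at the start, received intraperitoneal injections bid. The vehicle group was given 500 µl of saline and the alcohol group 1 g/kg of alcohol, and tissue from the core and shell of the NAc was taken after 7 days. The deposited data hold 1 array for each group, and whether RNA of several rats was pooled for an array is not stated in the labels.

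MicroRNAs guide Argonaute proteins to messenger RNAs, mainly by pairing of the seed near their 5′ end, and lower the output of those messages. In vertebrates the miR-99/100 and miR-125 genes lie in clusters together with let-7 genes and are transcribed with them. The miR-99/100 family is known for repressing mTOR and the IGF1 receptor, and miR-125b for acting at neuronal synapses together with the protein FMRP.

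Small RNA was tailed, labelled with Cy3 and hybridized to arrays of 1 colour. Each probe had 9 repeat spots on each array, and the number of arrays limits the precision. Raw density is the mean pixel intensity of a spot as deposited, without background subtraction. Normalized signal is the density after background correction and cyclic loess normalization between the arrays, averaged over the 9 spots on the log2 scale. Ratios are alcohol over vehicle. An SD over the 9 pairs of spots at the same position covers error within the arrays and not the spread between rats, so no difference between the groups has a test. In bulk tissue, fewer cells of a type and less RNA per cell cannot be told apart. A miRNA was called detected where at least 5 of 9 spots exceeded a threshold set from mismatched control spots, 278 under vehicle and 179 under alcohol. All 5 members passed on 9 of 9 spots of both arrays.

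The tissue label was checked against miRNAs that are typical of neurons. All 3 of them, miR-124, miR-9 and miR-128, were detected on both arrays. The normalized signal of miR-128, the brightest of the list under vehicle, was 27937 under vehicle and 28424 under alcohol, and that of miR-124 was 16630 and 16957. The arrays thus carried the neuronal miRNAs of brain tissue, and no marker list separates the NAc from other brain regions.

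The members are listed with the following mature sequences on the array, 5′ to 3′, printed to show which bases the probes of a family share. Capitals mark the seed, bases 2 to 8 counted from the 5′ end.
rno-miR-99a: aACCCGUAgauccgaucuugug
rno-miR-100: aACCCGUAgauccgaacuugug
rno-miR-99b: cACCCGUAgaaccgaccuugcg
rno-miR-125a-5p: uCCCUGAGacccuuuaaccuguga
rno-miR-125b-5p: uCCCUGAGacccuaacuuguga
All 5 were found in RefSeq miRNA sequences of rat, GRCr8. The seed of the miR-99/100 family was shared by 3 of the 349 probes, which are its 3 members. The miR-125 seed was also shared by 3 probes, of which the third was rno-miR-351. miR-99a and miR-100 were identical at 21 of 22 bases and differed by U16A, written with the base of miR-99a before the position and the base of miR-100 after it. miR-99b differed from miR-99a at 4 bases (A1C, U11A, U16C and U21C, miR-99a to miR-99b). miR-125a-5p, with 24 bases, and miR-125b-5p, with 22, shared their first 13 and last 5 bases. How much of one family member binds to the probe of another was not measured on these arrays.

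In the miR-99/100 family, miR-99a and miR-100 were higher on the alcohol array and miR-99b was near its vehicle level. The raw density of miR-99a was 850, 1233 and 1875 (lowest, median and highest of 9 spots) under vehicle and 3039, 3428 and 3894 under alcohol. That of miR-100 was 748, 1010 and 1452 under vehicle and 2721, 3124 and 3428 under alcohol. For both miRNAs every alcohol spot was brighter than every vehicle spot before normalization.

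After normalization the mean signal of miR-99a was 1439 under vehicle and 2583 under alcohol, or 179% of vehicle. Its log2 ratio was 0.84 ± 0.40 (SD over 9 spot pairs), above 0 in 9 of 9 pairs, and the brightest vehicle spot, at 2280.5, just passed the dimmest alcohol spot, at 2279.6. The signal of miR-100 was 1210 under vehicle and 2291 under alcohol, 189% of vehicle. Its log2 ratio was 0.92 ± 0.35 (SD over 9 spot pairs), above 0 in 9 of 9 pairs, and its spots did not overlap between the arrays. These are the members that differ by a single base, and their log2 ratios differed by -0.077 ± 0.54 (miR-99a minus miR-100, with the spot SDs of both probes combined), less than the spread over spots.

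miR-99b, which carries the same seed, had a raw density of 2142, 2701 and 3456 (lowest, median and highest) under vehicle and 3234, 3654 and 4039 under alcohol. After normalization its signal was 3078 under vehicle and 2900 under alcohol, 94.2% of vehicle. The spots of the arrays overlapped, and 3 of 9 pairs were higher on the alcohol array. Its log2 ratio, -0.086 ± 0.25 (SD over 9 spot pairs), was smaller than the spread over spots, and its sign was positive in 5 of 18 other processings, among them no normalization between the arrays at 0.49, scaling to 5S rRNA probes at 0.80 and removal of a GC trend at 0.42.

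miR-99a and miR-100 therefore parted from miR-99b within the family. The log2 ratio of miR-99a exceeded that of miR-99b by 0.93 ± 0.47 (combined spot SD, as for all differences between probes), and that of miR-100 exceeded it by 1.01 ± 0.43. The combined SD takes the spots of the probes as independent. Both differences were past 1.3-fold in 18 of 18 other processings. Their lowest values were 0.48 and 0.56, both after a linear trend of the ratios with GC content was removed. The GC content of the target is 63.6% for miR-99b and 50% for miR-99a and miR-100, and the trend fell by 0.0327 on the log2 scale per percentage point of GC over the miRNAs detected on both arrays.

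**Figure D1:**
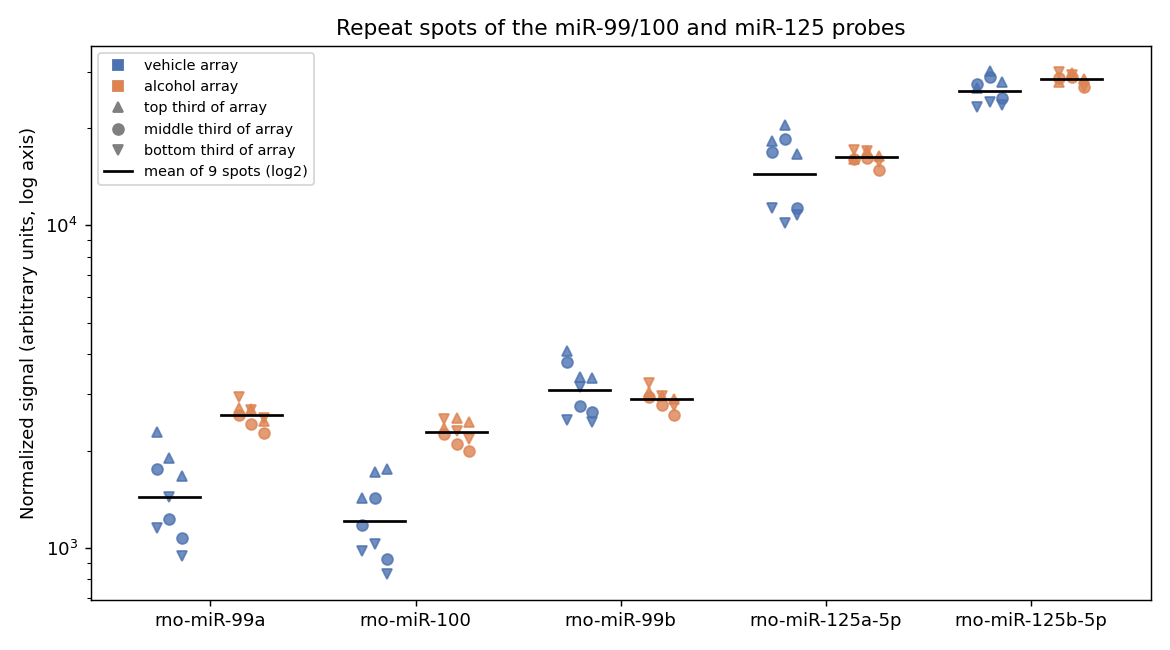
Normalized signal (arbitrary units, log axis) of the 9 repeat spots of each member on the vehicle and alcohol arrays, with bars at the mean log2 value and symbols for the part of the array (top, middle or bottom) in which a spot lies. The vehicle spots of miR-100 lie between 828 and 1763 and its alcohol spots between 1996 and 2529, whereas the spots of miR-99b overlap between the arrays.

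The miR-125 family showed smaller ratios. miR-125a-5p had a raw density of 10771, 17505 and 21597 (lowest, median and highest of 9 spots) under vehicle and 14248, 15502 and 16414 under alcohol. The vehicle spots thus spread on both sides of the alcohol spots. After normalization the signal was 14448 under vehicle and 16263 under alcohol, 113% of vehicle, with a log2 ratio of 0.17 ± 0.40 (SD over 9 spot pairs) and 4 of 9 pairs higher.

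miR-125b-5p had a raw density of 26905, 30903 and 34841 under vehicle and 23294, 24891 and 25923 under alcohol, so every raw alcohol spot was dimmer than every vehicle spot. Normalization turned this direction. The normalized signal was 26189 under vehicle and 28455 under alcohol, 109% of vehicle, with overlapping spots. The log2 ratio was 0.12 ± 0.13 (SD over 9 spot pairs), with 7 of 9 pairs higher. Neither miR-125 ratio exceeded its spread over spots, and both changed sign with the scaling of the arrays. Under scaling to the median of detected miRNAs the log2 ratio was -1.18 for miR-125a-5p and -1.51 for miR-125b-5p, and without normalization it was 0.038 and -0.29. The ratios of the pair differed by 0.051 ± 0.42 (miR-125a-5p minus miR-125b-5p), and this difference lay between -0.12 and 0.33 over the 18 other processings.

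Of the 5 members, 2 (miR-99a and miR-100) were higher under alcohol by 1.3-fold or more, and 0 were lower by as much. Of all miRNAs that were detected on either array and reached a normalized signal of 400 on the brighter one, 33 (26.4%) were higher and 26 (20.8%) were lower by that rule. Passing 1.3-fold was thus common on these arrays, and nothing particular to the families is read from the counts. The 150 miRNAs detected on both arrays had a median log2 ratio of -0.070, with quartiles of -0.39 and 0.27 and an SD of 0.67. Of these 150, 8 had a higher ratio than miR-100 and 9 had a higher ratio than miR-99a. Over the other processings these numbers were 7 to 14 for miR-100 and 9 to 14 for miR-99a. miR-125a-5p, miR-125b-5p and miR-99b were exceeded by 46, 51 and 79 of the 150 miRNAs, and these positions were less stable, with ranges of 27 to 115, 37 to 133 and 23 to 99.

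**Figure D2:**
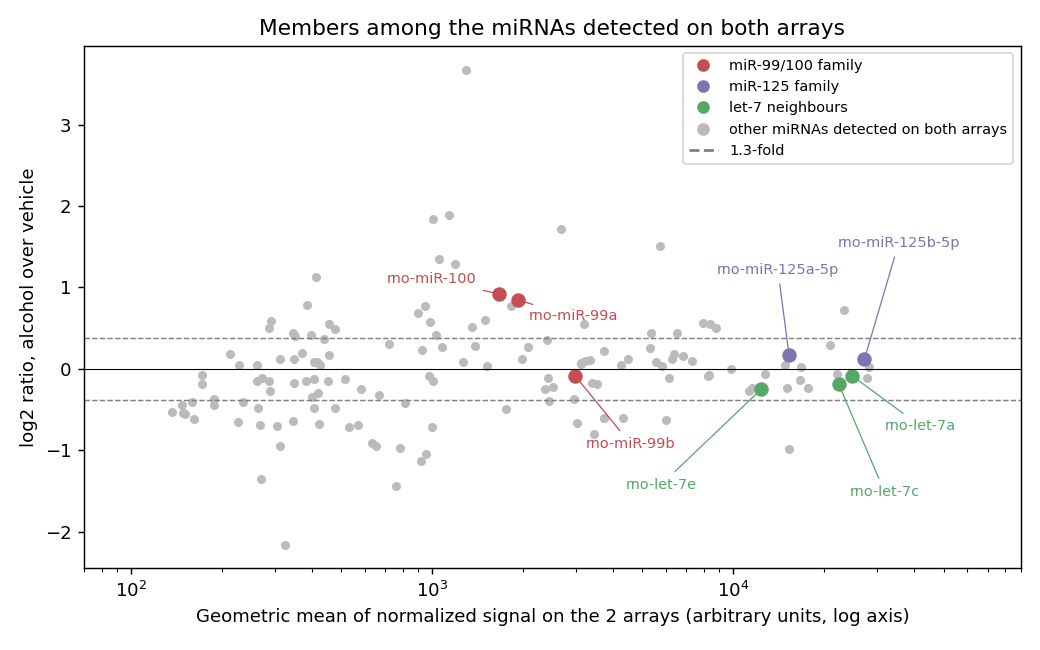
Log2 ratio of alcohol over vehicle against the geometric mean of the normalized signal (arbitrary units, log axis) for the 150 miRNAs detected on both arrays, with the 5 members and 3 let-7 neighbours in colour and dashed lines at 1.3-fold. miR-99a (0.84) and miR-100 (0.92) lie above the upper line, and the other members and the let-7 probes lie between the lines under this normalization.

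Set side by side, the median log2 ratio was 0.84 ± 0.41 for the miR-99/100 family and 0.15 ± 0.26 for the miR-125 family (SD over 9 spot pairs), the latter below 0 in 4 of 18 other processings. The families differed by 0.70 ± 0.24 (SD over 9 spots of the difference at each position). That SD leaves out variation that the families share at a position. It is thus not comparable with the combined spot SDs of the differences between probes. The difference was above 0 in 18 of 18 other processings. It ran from 0.42 with quantile normalization to 1.74 without normalization and with each constant scaling, which cancels in a difference. Normalized vehicle signals were 1210 to 3078 in the miR-99/100 family, against 14448 and 26189 in the miR-125 family. The difference thus compares dimmer with brighter probes, and a constant scaling leaves any trend of the ratio with signal in place. The part of signal level was not tested. The median of the miR-99/100 family is the value of miR-99a itself and does not describe miR-99b.

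On GRCr8, all on the plus strand, the members fall in 3 clusters with let-7 genes. The array files name no build, and these positions come from RefSeq by sequence. The miR-99a sequence lies at chr11:29687404-29687425, followed by let-7c at chr11:29688127-29688148 and miR-125b at chr11:29732588-29732609, within the span of LOC103693508. The miR-100 sequence lies at chr8:50798307-50798328, followed by let-7a at chr8:50805219-50805240 and miR-125b at chr8:50850050-50850071, within the spans of Lnc215 and Mir100hgl. The miR-99b sequence lies at chr1:67350070-67350091, followed by let-7e at chr1:67350243-67350264 and miR-125a-5p at chr1:67350689-67350712, within the span of Spaca6. Mature miR-125b has the same sequence at both of its loci, and let-7a and let-7c are each found at a locus outside these clusters too, on chromosomes 17 and 7. Their probes therefore report the sum over loci. In addition, let-7a differs by 1 base from let-7c (A19G, let-7a to let-7c) and by 1 base from let-7e (U9G, let-7a to let-7e). Binding of one let-7 to the probe of another was not measured, so the let-7 probes may not separate the clusters.

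The let-7 neighbours, known for timing development and for repressing growth genes, had ratios slightly below 0 under this normalization. The log2 ratio was -0.087 ± 0.059 for let-7a, -0.19 ± 0.065 for let-7c and -0.25 ± 0.057 for let-7e (SD over 9 spot pairs). The ratio of let-7c was below 0 in 18 of 18 other processings, that of let-7a in 17, with 0.027 in the authors' processed values, and that of let-7e in 16, with 0.017 under 5S rRNA scaling and 0 with quantile normalization. Against its cluster neighbour let-7c, miR-99a was higher in ratio by 1.04 ± 0.41, with 0.82 to 2.12 over the other processings. miR-100 exceeded its neighbour let-7a by 1.01 ± 0.36, with 0.77 to 2.19. Both differences were past 1.3-fold in 18 of 18 other processings. They too compare dimmer with brighter probes, since the normalized vehicle signal was 25624 for let-7a and 23981 for let-7c.

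In the third cluster miR-99b lay closer to its let-7 neighbour than miR-99a and miR-100 did to theirs. miR-99b minus let-7e was 0.17 ± 0.26, from -0.012 to 0.91, and miR-125a-5p minus let-7e was 0.42 ± 0.40, from 0.16 to 0.78. The 2 members of this cluster, miR-99b and miR-125a-5p, differed in log2 ratio by -0.26 ± 0.47, a value within the spread over spots that ranged from -0.50 to 0.45. miR-125b-5p exceeded let-7a by 0.21 ± 0.14 and let-7c by 0.31 ± 0.15, and both differences were above 0 in 18 of 18 other processings.

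The repeat spots showed where on the vehicle array the members varied. Each probe had 3 spots in the top part, 3 in the middle and 3 in the bottom part of the array. The parts were compared by background-corrected density, averaged as log2 over 3 spots, before normalization between the arrays. Under vehicle the value of miR-99a in the bottom part was 60.1% of that in the top part. This share was 57.7% for miR-100, 58.5% for miR-125a-5p, 74.6% for miR-99b and 83.9% for miR-125b-5p. The median over the 150 miRNAs was 84.3%, and 17 of them had a lower value than miR-99a, 12 than miR-100, 14 than miR-125a-5p, 42 than miR-99b and 73 than miR-125b-5p. On the alcohol array the same share was 94.8% to 103% for the 5 members, with a median of 99.8% over the 150 miRNAs. The vehicle array therefore faded toward the bottom, and miR-99a, miR-100 and miR-125a-5p were among the miRNAs that faded most.

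The ratios moved with this position. The log2 ratio of miR-99a was 0.64 in the top part, 0.85 in the middle and 1.05 at the bottom, and that of miR-100 was 0.80, 0.86 and 1.11. Both were past 1.3-fold in each part, so their higher signal was also present at the top, where their vehicle spots were brightest. The ratio of miR-125a-5p was -0.019 in the top part, 0.044 in the middle and 0.50 at the bottom, so its positive value lay mostly in the bottom spots. miR-99b (-0.11, -0.14 and 0.0036) and miR-125b-5p (0.095, 0.059 and 0.22) moved less. The let-7 neighbours faded less under vehicle, with bottom shares of 94.0% for let-7a, 95.4% for let-7c and 90.4% for let-7e. miR-99a minus let-7c was 0.82 at the top and 1.27 at the bottom, and miR-100 minus let-7a was 0.88 and 1.21. The part of the fading in the full ratios and in these differences was not tested beyond these values.

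Repeat spots of the 5 members also scattered more on the vehicle array. The coefficient of variation of raw density over 9 spots was 26.6% for miR-99a, 24.5% for miR-100, 26.5% for miR-125a-5p, 17.6% for miR-99b and 9.30% for miR-125b-5p on the vehicle array. On the alcohol array it was 3.85% to 7.86% for the 5 members.

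Among control probes with built-in mismatches, the pair PUC2PM and PUC2MM had the largest mismatched share on both arrays. The mismatched signal came to 46.5% of its matched partner under vehicle and 77.0% under alcohol. In the other pairs, after subtraction of the control baseline, the share ran from -3.15% to 0.138% under vehicle and from -0.330% to 7.78% under alcohol, where values below 0 are background. The share was larger under alcohol in 14 of 15 pairs, a tally that includes differences at background, since 6 of the 15 shares were below 0 under vehicle. PUC2PM and PUC2MM were chosen after their values were seen. Since miR-99a and miR-100 differ by a single base, binding of one to the probe of the other bears on whether their ratios are separate measurements, and its part in the results was not tested.

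The processed signal that the authors deposited gave similar pairs of values. It was 1289 under vehicle and 2362 under alcohol for miR-99a, 1147 and 2089 for miR-100, and 2939 and 2571 for miR-99b. For miR-125a-5p it was 13386 and 15223, and for miR-125b-5p 22823 and 27266. In these values too, miR-99a and miR-100 were higher on the alcohol array and miR-99b was lower.

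**Figure D3:**
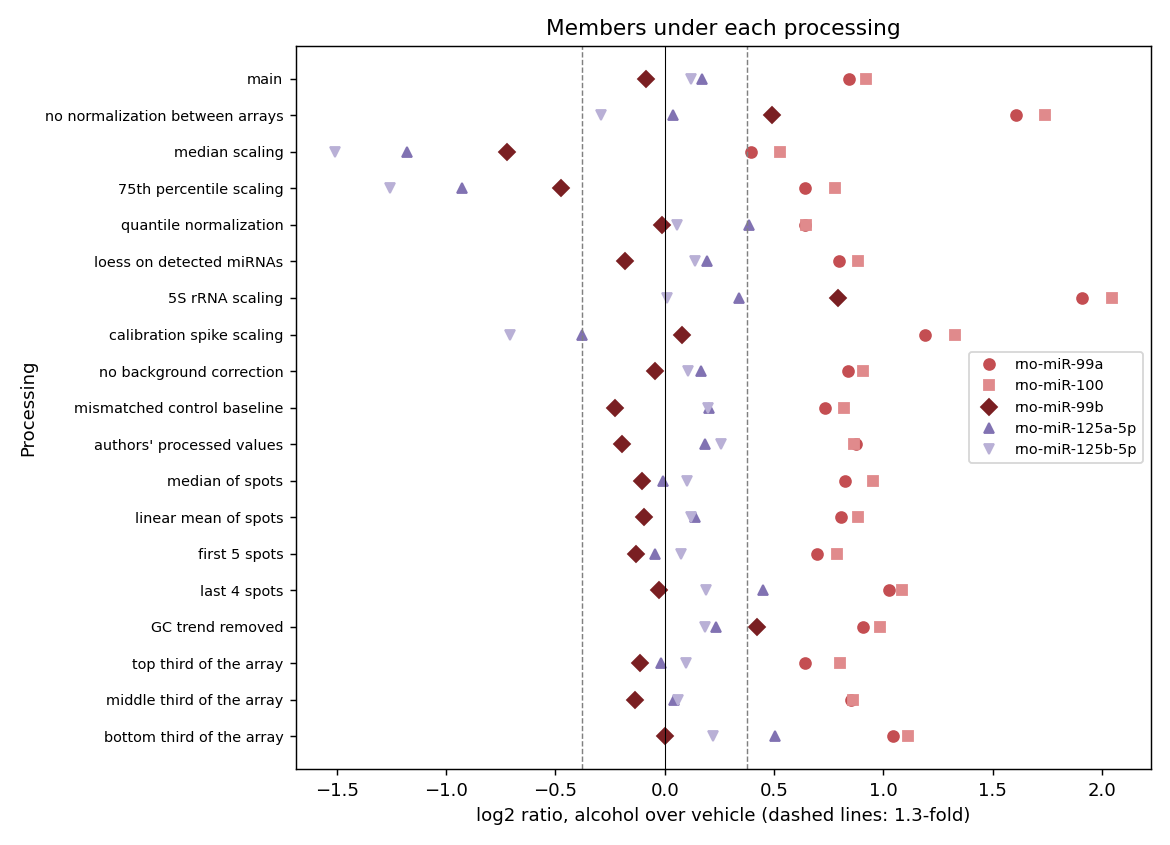
Log2 ratio of alcohol over vehicle for each member (symbols) under the reported processing and 18 others, with dashed lines at 1.3-fold. miR-99a runs from 0.39 to 1.91 and miR-100 from 0.53 to 2.04, both past the upper line throughout, whereas miR-99b (-0.72 to 0.80), miR-125a-5p (-1.18 to 0.50) and miR-125b-5p (-1.51 to 0.26) fall on both sides of 0.

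The partner strands of the members' hairpins were near background. miR-125a-3p was detected on 6 of 9 vehicle spots and 9 of 9 alcohol spots, with a normalized signal of 172 under vehicle and 127 under alcohol and a log2 ratio of -0.44 ± 0.21 (SD over 9 spot pairs), which turned to 0.074 under 5S rRNA scaling. Its signal was under the minimum of 400 used for the counts. miR-125b* was detected on the alcohol array only, on 9 of 9 spots against 0 of 9 on the vehicle array, where the threshold was higher, and its normalized signals were 122 and 131. miR-125b-3p, miR-99a* and miR-99b* were not detected on either array, so the partner strands of miR-99a and miR-99b give no second reading of those hairpins. Also not detected on either array were miR-351, which carries the miR-125 seed, and miR-10a-5p and miR-10b, relatives of the miR-99/100 family.

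Marker miRNAs of other cell types were read beside the members. Of the 2 oligodendrocyte markers, miR-338 had a normalized signal of 177 under vehicle, where it was not detected, and 548 under alcohol, where it was. miR-219-5p was at 144 and 145 and passed the detection threshold under alcohol, where that threshold was lower. The summed signal of the list was 321 and 693, a difference carried by miR-338. Other strands of these hairpins, named after their values were seen, did not move with it. miR-338* was at 681 and 413, and miR-219-2-3p at 2584 and 2170, both lower under alcohol except without normalization and with 5S rRNA and spike scaling.

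Of 7 markers of choroid plexus and ependyma, 0 were detected under vehicle and 2 under alcohol. The sum of the list was 862 and 1596, carried by miR-204, the brightest, at 220 and 998. The log2 ratio of the sums, 0.89, turned to -0.071 under median scaling. With 0 of these markers detected under vehicle, that ratio has background as its base and does not measure a change of the list. The log2 ratios of the other 6 lay between -0.18 and -0.026 under this normalization, including miR-34c, at 126 and 123, which passed the lower threshold of the alcohol array. In these lists the markers that were higher together with miR-99a and miR-100 were miR-338 and miR-204, each past 1.3-fold in 18 of 18 other processings. Their part in the ratios of the members was not tested.

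The vessel markers miR-126, miR-143 and miR-145 were detected on both arrays, with a sum of 8515 under vehicle and 10028 under alcohol. The brightest, miR-126, was at 6443 and 7180, and miR-145, known from smooth muscle, had a log2 ratio of 0.60 ± 0.28 (SD over 9 spot pairs), above 0 in 18 of 18 other processings and past 1.3-fold in 16. The vessel sum was lower under alcohol in 3 of 18 other processings, with median scaling, 75th percentile scaling and quantile normalization, and the part of vessel content in the ratios was not tested. Of 6 probes for blood and microglia, miR-150 was detected on both arrays, at 3033 and 3195, and the other 5, miR-223, miR-142-3p, miR-142-5p, miR-451 and miR-144, were not detected on either. The summed signal of that list was 3521 and 3678, a difference whose sign turned in 9 of 18 other processings.

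The neuronal sum was 62785 under vehicle and 75326 under alcohol, a difference that lay mainly in miR-9, whose log2 ratio of 0.72 ± 2.57 was smaller than its spread over spots. The ratio of miR-9 was 2.12 in the middle part of the array, against 0.016 at the top and 0.045 at the bottom, and 0.027 with the median of spots. The neuronal sum was lower under alcohol in 4 of 18 other processings. The liver miRNA miR-122 was at 685 and 153. Of 5 muscle markers, 1 was detected on the vehicle array (miR-133a, the brightest, at 137 and 101) and 0 on the alcohol array, with sums of 566 and 493.

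By likeness over the 2 arrays, and among the 150 miRNAs detected on both, those with the log2 ratio nearest to the members' median of 0.17 were miR-106b (0.17), miR-126 (0.16), miR-192 (0.18), miR-103 (0.19) and miR-369-5p (0.19). With 2 arrays this names miRNAs of similar ratio and nothing more. The members' median is the value of miR-125a-5p itself and does not describe miR-99a (0.84) or miR-100 (0.92).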

How the data were processed

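Small RNA from the NAc of vehicle-treated and alcohol-treated rats was measured on 1 array per group. The values are the spot intensity deposited by the authors, without background subtraction, and as an alternative the authors' processed intensity per probe, which they normalized with a cyclic method. Spot values were background-corrected with normexp (offset 50, limma 3.58.1, R 4.3.3, foreground only), averaged as log2 over 9 spots, and normalized by cyclic loess (span 0.7, 3 iterations) over 349 miRNA probes. Other steps used Python 3.11.15, numpy 2.4.6 and pandas 2.3.3. Detection required 5 of 9 spots above the median of 88 mismatched control spots by 3 scaled median absolute deviations. The t-test named by the series was not run, since each group has 1 array, and no p-value is given. The steps were tested on simulated arrays.

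Named miRNAs were the 5 members, the let-7 neighbours in their clusters, probes with a member's seed, partner strands, miR-10a-5p and miR-10b, the 5 miRNAs of nearest ratio, and marker lists for neurons, oligodendrocytes, blood and microglia, vessels, choroid plexus and ependyma, liver and muscle. A control pair and other strands of the oligodendrocyte hairpins were added after their values were seen. Members and lists were chosen with earlier results of these data known. Alternatives covered the scaling of the arrays, background correction, averaging of spots, GC content, thresholds and detection, 15 planned for the ratios, and 3 by the third of the array chosen after seeing the data.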

Additional observations from a re-analysis of the deposited data

How the results depend on the processing

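No paired analysis was possible since the groups have 1 array each. Treatment and array cannot be told apart in any processing, and signals near the detection threshold limit the partner strands.

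The median log2 ratio of all 349 miRNA probes was 0.0067 as reported. No normalization placed it at -0.22, median scaling at -1.43, 75th percentile scaling at -1.18, loess on detected miRNAs at -0.32, calibration spikes at -0.63 and 5S rRNA at 0.085. Over the 150 miRNAs detected on both arrays, to which the members belong, the median was -0.070 as reported, 0.57, -0.65, -0.40, 0.013, 0.15 and 0.87 in the same order, and the members' ratios are to be read against these. The distance of miR-125b-5p from that median, 0.19 as reported, was -0.86 under no normalization and each constant scaling. The median log2 ratio of miR-99/100, 0.84, became 1.61 under no normalization, 0.39 under median scaling and 1.91 under 5S rRNA scaling, and was past 1.3-fold in 18 of 18 other settings. That of miR-125, 0.15, became -0.13 under no normalization, -1.34 under median scaling, -1.09 under 75th percentile scaling and -0.54 under spike scaling, and was above 0 in the other 14. The difference between the families, 0.70, became 0.42 under quantile normalization and 1.74 under no normalization and under median, 75th percentile, 5S rRNA and spike scaling. miR-125a-3p (-0.44) became 0.074 under 5S rRNA scaling. miR-338* (-0.72) became 0.44 under no normalization, 0.75 under 5S rRNA scaling and 0.027 under spike scaling. miR-9 (0.72) became -0.83 under median scaling, -0.58 under 75th percentile scaling, -0.034 under spike scaling and -0.0010 in the first 5 spots. The cause was not tested.

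Of the members, 2 were at least 1.3-fold higher and 0 lower. No normalization, quantile normalization, 5S rRNA scaling, the last 4 spots, removal of the GC trend and the bottom part of the array made 3 members higher. At 2-fold, 0 were higher. Median scaling made 3 members lower, 75th percentile scaling 3 and spike scaling 1. Over all miRNAs, 33 were higher and 26 lower as reported. No normalization gave 85 higher and 8 lower, median scaling 17 and 79, and 5S rRNA scaling 100 and 2. Spike scaling gave 54 higher and 75th percentile scaling 60 lower. At 1.5-fold 19 were higher, and at 2-fold 11 were higher and 5 lower.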
